A study of Rattus norvegicus with 6 samples.

Results

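The 10 genes examined here mark the fibroblasts of the synovium, the membrane that wraps a joint. They were the lining genes Prg4, Cd55 and Has1, the hyaluronan synthase gene Has2, the sublining genes Thy1 and Cd34, the activation genes Pdpn and Fap, and the adhesion genes Cdh11 and Vcam1. Members were taken by symbol from the gene names on the array, which gave 13 of the 41012 non-control probes and 10 of the 16335 genes with a settled symbol: 4 probes for Cdh11 and 1 for each of the others. All 13 member probes passed the filter on dim probes, and all 13 are named for the same gene by the RefSeq table of rat genes.

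The tissue was synovium from the ankle joints of the hind legs of male rats aged 8 weeks, whose strain is not given in the sources used here. Every rat, in both groups, carried adjuvant arthritis, a joint inflammation provoked by Freund's complete adjuvant, here 0.1 ml into the peritoneum on each of 18 days. The triptolide group (3 samples) received triptolide, a diterpenoid from the thunder god vine, at 0.4 mg/kg on each of 14 days. The arthritis group (3 samples) received a matching amount of saline. The comparison asks how triptolide bears on gene expression in the arthritic synovium. A healthy group was not analysed here. Nothing in the labels ties the replicates to separate animals, and the p-values then rest only on how far these samples spread, which may be technical.

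The synovial membrane has a thin lining that faces the joint cavity and a looser sublining that holds vessels, nerves and fat. Lining fibroblasts secrete lubricin, the product of Prg4, and hyaluronan, which together lubricate cartilage. Sublining fibroblasts carry THY1 or CD34 on their surface. In inflamed joints the lining thickens, and fibroblasts with podoplanin and fibroblast activation protein are known for invading cartilage and for feeding inflammation.

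Each sample was hybridised to 1 whole-genome oligonucleotide array of 1 colour. Levels below are log2 of spot intensity minus the log2 75th percentile of the same array, so that 0 is a signal at that percentile and a difference of 1 is a doubling. A level is compared between arrays for the same probe and never between probes. Differences are triptolide minus arthritis, with the standard error (SE) from limma and p-values adjusted by Benjamini-Hochberg over 25772 tested probes. The number of arrays, 3 per group, limits the precision. Because whole tissue was measured, fewer cells of a type and less RNA per cell cannot be told apart.

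Of the non-control spots, the share with a signal well above background ran from 59.6% in triptolide 1 to 65.1% in arthritis 1, and 0 spots were saturated. All 10 general fibroblast markers were tested, 2 of them higher and 8 lower in the triptolide mean. Arthritis 2 and triptolide 2 stood apart in the markers of other tissues. The 13 tested of 15 skeletal muscle markers summed to 4894.83 times the 75th percentile signal in arthritis 2, against 4.93 and 5.02 in the other arthritis arrays and 3.89 to 90.2 in the triptolide arrays. In triptolide 2 the 8 tested of 10 peripheral nerve markers summed to 261.1, against 56.4 to 94.0 elsewhere. The 9 tested of 10 smooth muscle and pericyte markers summed to 154.6 in triptolide 2 and 156.8 in arthritis 2, against 34.0 to 55.3 on the other 4 arrays. Des, a gene that skeletal muscle also expresses, made up 111.3 of the sum in arthritis 2, and without it the sums were 45.5 in arthritis 2, 136.9 in triptolide 2 and 27.8 to 46.4 on the other 4. Slide 1 held all arthritis arrays and triptolide 1, and slide 2 held triptolide 2 and 3, so slide and group are largely confounded.

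Across the 10 members nothing passed the adjusted threshold of 0.05 in limma, where 0 of 25772 probes did (0%) and the lowest adjusted p of any probe was 0.344. At an unadjusted limma p under 0.05 stood 0 of 10 members, against 3.23% of all tested probes, and in 0 of 10 members did the groups fail to overlap, against 8.64% of all probes. In the group means 3 members were higher and 7 lower with triptolide, where 46.1% of all tested probes were lower. The median difference was -0.17 over the members and 0.02 over all tested probes. The adjusted p ran from 0.994 to 0.999 over the members.

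**Figure D1:**
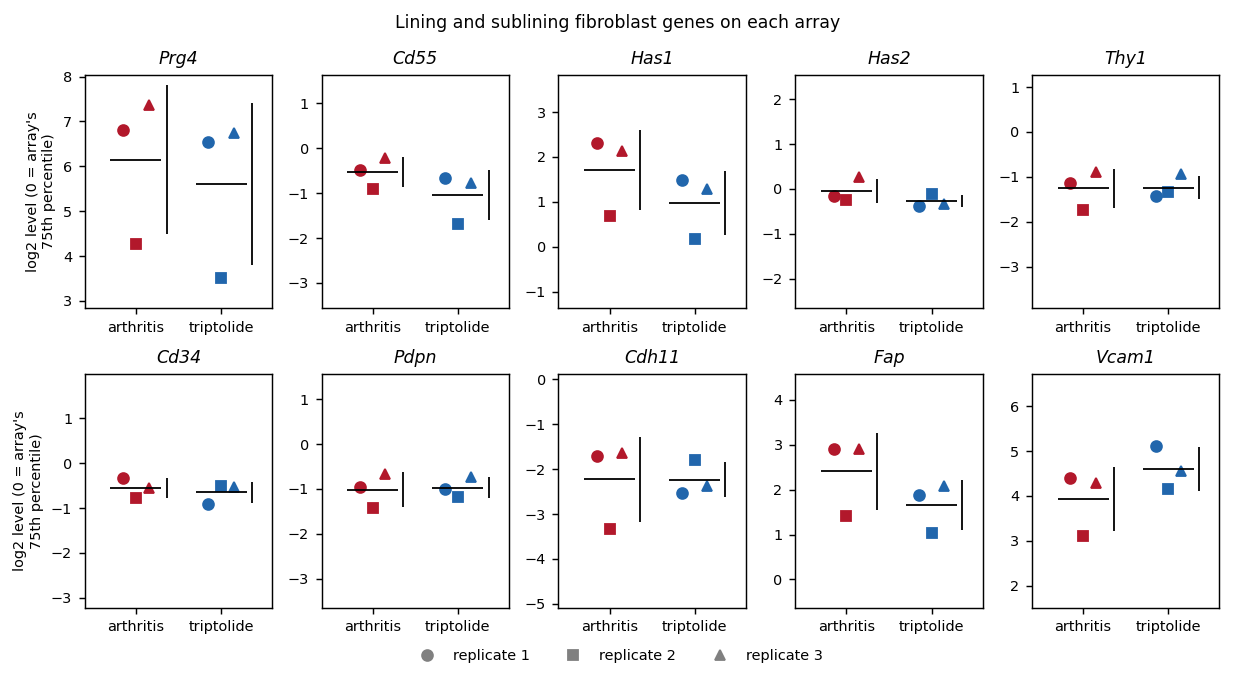
Log2 level of each member gene (y axis, 0 is the array's own 75th percentile, every panel spanning the same number of log2 units) on the arthritis and triptolide arrays (x axis). Symbols mark replicates, horizontal lines the group means and vertical lines 1 SD either side (n = 3). Groups overlap in all 10 panels, and the squares of replicate 2 are the lowest point of each group for Prg4, Cd55, Has1, Pdpn, Fap and Vcam1.

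Of the lining genes, Prg4 encodes lubricin, the mucin-like glycoprotein that coats cartilage. The 60 bases that the array reads for it lie at chr13:64754998-64755057 on the minus strand of rat build rn4, as the files give it. This probe is printed because Prg4 had the widest spread of the 10 genes.
Prg4: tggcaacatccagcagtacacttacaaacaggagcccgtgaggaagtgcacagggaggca
The Prg4 level was 6.81, 4.27 and 7.37 in arthritis 1 to 3 and 6.55, 3.52 and 6.74 in triptolide 1 to 3. Replicate 2 was the low array of each group, and the groups overlapped through it. The lowest and highest arrays differed 14.5-fold, and 98.6% of tested probes had a smaller SD within groups than the 1.73 of Prg4. The means differed by -0.55 (SE 1.14, 95% interval -3.30 to 2.20), a 1.46-fold lower mean that lies far inside the spread between replicates (limma adjusted p = 0.994). The sign rested on single arrays: the difference was 0.06 without arthritis 3 and 0.49 without triptolide 2.

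Cd55 encodes decay-accelerating factor, a membrane protein that breaks up complement convertases and is a classical surface marker of the lining. Its probe lies at chr13:43336846-43336905 (rn4, minus strand). The level was -0.47, -0.90 and -0.22 in arthritis 1 to 3 and -0.66, -1.69 and -0.77 in triptolide 1 to 3. Triptolide 2 was the lowest of the 6 arrays, and arthritis 2 lay below triptolide 1 and 3, so the groups overlapped. The difference was -0.51 (SE 0.33, 95% interval -1.31 to 0.29; limma adjusted p = 0.994), and it kept its sign with each array left out in turn (-0.70 to -0.18).

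Has1 encodes a membrane enzyme that polymerises hyaluronan and extrudes it into the joint fluid. Its probe, at chr1:56503669-56503728 (rn4, minus strand), is shown because Has1 was among the members with the largest lower mean.
Has1: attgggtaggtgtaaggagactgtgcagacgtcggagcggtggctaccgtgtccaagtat
Has1 stood at 2.31, 0.69 and 2.13 in arthritis 1 to 3 and at 1.48, 0.17 and 1.28 in triptolide 1 to 3. Arthritis 1 and 3 were the high pair and replicate 2 was again lowest in each group, with arthritis 2 below triptolide 1 and 3. The mean was 1.66-fold lower with triptolide, a difference of -0.73 (SE 0.54, 95% interval -2.04 to 0.57; limma adjusted p = 0.994). Leaving out each array in turn gave -1.24 to -0.33.

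Has2, the sister synthase that is widely expressed in mesenchymal cells, was not placed in either layer. Its probe lies at chr7:93230435-93230494 (rn4, minus strand). The level was -0.16, -0.25 and 0.27 in arthritis 1 to 3 and -0.37, -0.12 and -0.34 in triptolide 1 to 3. Arthritis 3 was the only array above its 75th percentile, and triptolide 2 lay above arthritis 1 and 2. The difference was -0.23 (SE 0.19, 95% interval -0.69 to 0.24; limma adjusted p = 0.994). Unlike Has1, Has2 was not low in replicate 2 of the triptolide group, where it had its highest triptolide value.

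Among the sublining genes, Thy1 encodes a glycosylphosphatidylinositol-anchored glycoprotein of perivascular fibroblasts that is also carried by nerve and, in rats, by young T cells. Its 60-base probe is given by the files a span of 461 bases, chr8:47031186-47031646 (rn4, plus strand), so 401 bases of the span lie outside the probe, a layout that a probe over a splice junction would have. It is printed as the counterpart of the lining probes.
Thy1: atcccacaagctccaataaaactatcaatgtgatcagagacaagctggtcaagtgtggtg
Thy1 stood at -1.13, -1.75 and -0.90 in arthritis 1 to 3 and at -1.43, -1.34 and -0.94 in triptolide 1 to 3. Arthritis 2 was the lowest array and arthritis 3 the highest, with the triptolide arrays between them. The difference was 0.02 (SE 0.27, 95% interval -0.63 to 0.67; limma adjusted p = 0.999). As a ratio of triptolide to arthritis that interval runs from 0.64 to 1.59, which leaves room for a change in either direction.

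Cd34 encodes a sialomucin of a sublining fibroblast subset, of endothelium and of blood progenitors. Its probe lies at chr13:110885750-110885809 (rn4, plus strand). It stood at -0.32, -0.77 and -0.54 in arthritis 1 to 3 and at -0.92, -0.50 and -0.54 in triptolide 1 to 3. Triptolide 1 was lowest, arthritis 1 highest and the other arrays lay between. The difference was -0.11 (SE 0.20, 95% interval -0.58 to 0.37; limma adjusted p = 0.994), and Cd34 had the narrowest range over the 6 arrays of the 10 genes, 1.51-fold. The 12 tested of 12 endothelial markers summed to 59.4 to 67.3 in arthritis and 44.7 to 114.2 in triptolide, highest in triptolide 2, and their part in the Cd34 level was not tested.

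The first activation gene, Pdpn, encodes podoplanin, a mucin-type glycoprotein of activated synovial fibroblasts and of lymphatic endothelium. Its probe lies at chr5:162143051-162143110 (rn4, minus strand). The level was -0.95, -1.43 and -0.66 in arthritis 1 to 3 and -1.01, -1.18 and -0.73 in triptolide 1 to 3. Replicate 2 was lowest and replicate 3 highest in each group, and the triptolide arrays lay within the arthritis range. The difference was 0.04 (SE 0.24, 95% interval -0.55 to 0.63; limma adjusted p = 0.995). Of 6 lymphatic endothelial markers, 4 were tested and summed to 13.5 to 40.9 in arthritis and 31.8 to 53.4 in triptolide, and their part in the Pdpn level was not tested.

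Fap encodes fibroblast activation protein, a membrane serine peptidase that cleaves after proline. Its probe, at chr3:44458727-44458786 (rn4, minus strand), is shown because Fap had the largest lower mean of the 10 genes.
Fap: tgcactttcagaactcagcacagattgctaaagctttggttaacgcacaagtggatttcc
Fap stood at 2.91, 1.41 and 2.90 in arthritis 1 to 3 and at 1.87, 1.03 and 2.09 in triptolide 1 to 3. Arthritis 1 and 3 were close to each other and above every triptolide array, while arthritis 2 lay below triptolide 1 and 3. The mean was 1.68-fold lower with triptolide, a difference of -0.75 (SE 0.49, 95% interval -1.94 to 0.44; limma adjusted p = 0.994). With each array left out in turn it ran from -1.25 to -0.43. Pdpn and Fap thus gave different signs and sizes under the same heading of activation, a contrast that was not tested.

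Of the adhesion genes, Cdh11 encodes cadherin-11, the homophilic junction protein by which lining fibroblasts hold to each other. It had 4 probes on the plus strand of chromosome 19 of rn4: probe 1 at chr19:2352706-2352765, probe 2 at chr19:2365770-2365829, probe 3 at chr19:2380233-2380292 and probe 4 at chr19:2382456-2382515. The first 3 read separate stretches, each with a reading frame free of stops, which alone does not show coding sequence. They are printed so that their values can be read as repeat measurements of 1 gene on the same arrays.
Cdh11 probe 1: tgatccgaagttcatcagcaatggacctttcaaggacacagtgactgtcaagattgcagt
Cdh11 probe 2: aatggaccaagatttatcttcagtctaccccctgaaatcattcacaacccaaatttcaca
Cdh11 probe 3: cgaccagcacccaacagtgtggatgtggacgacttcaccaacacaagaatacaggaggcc
Probe 3, the brightest, stood at -1.70, -3.32 and -1.65 in arthritis 1 to 3 and at -2.54, -1.80 and -2.37 in triptolide 1 to 3. Arthritis 2 was lowest, arthritis 1 and 3 were highest, and triptolide 2 was the highest of its group. Its difference was -0.01 (SE 0.49, 95% interval -1.20 to 1.18; limma adjusted p = 0.999).

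The other Cdh11 probes were also lowest in arthritis 2, but their highest array was triptolide 2. Probe 1 stood at -2.45, -4.30 and -2.37 in arthritis 1 to 3 and at -3.35, -2.002 and -2.996 in triptolide 1 to 3, a difference of 0.26 (SE 0.61). Probe 2 stood at -2.12, -3.67 and -2.05 and at -2.71, -1.49 and -2.50, a difference of 0.38 (SE 0.53). Probe 4 was well above background on 5 of the 6 arrays and differed by 0.13 (SE 0.34). On all 4 probes arthritis 2 was lowest and triptolide 2 the highest of the triptolide group, so every probe of the gene read the replicate 2 arrays at opposite ends of their groups. The 4 differences, of either sign, all lay within 1 SE of 0.

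**Figure D2:**
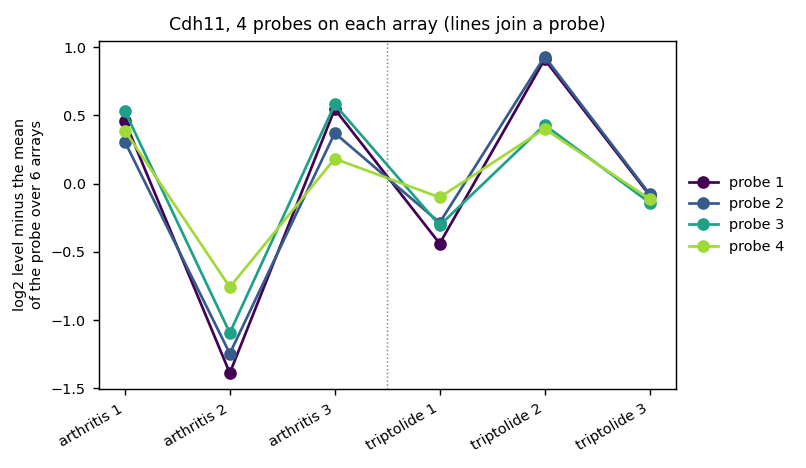
Log2 level of the 4 Cdh11 probes on each of the 6 arrays, each minus that probe's mean over the 6 arrays (y axis), with a line joining the values of 1 probe and a dotted line between the groups. All 4 probes are lowest in arthritis 2, and in the triptolide group all 4 are highest in triptolide 2.

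Vcam1 encodes a cytokine-inducible adhesion molecule of lining fibroblasts and endothelium that binds the leukocyte integrin VLA-4. Its probe lies at chr2:212277695-212277754 (rn4, minus strand). The level was 4.41, 3.105 and 4.30 in arthritis 1 to 3 and 5.12, 4.15 and 4.55 in triptolide 1 to 3. Triptolide 1 and 3 were the highest arrays and arthritis 2 the lowest, while triptolide 2 lay below arthritis 1 and 3. The mean was 1.59-fold higher with triptolide, a difference of 0.67 (SE 0.42, 95% interval -0.35 to 1.69; limma adjusted p = 0.994). Beside Thy1 and Pdpn, both near 0, it was the third member with a higher mean. It kept its sign with each array left out in turn (0.25 to 0.90), and it was 1.18 within slide 1, where triptolide 1 alone stood for the treated group.

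**Figure D3:**
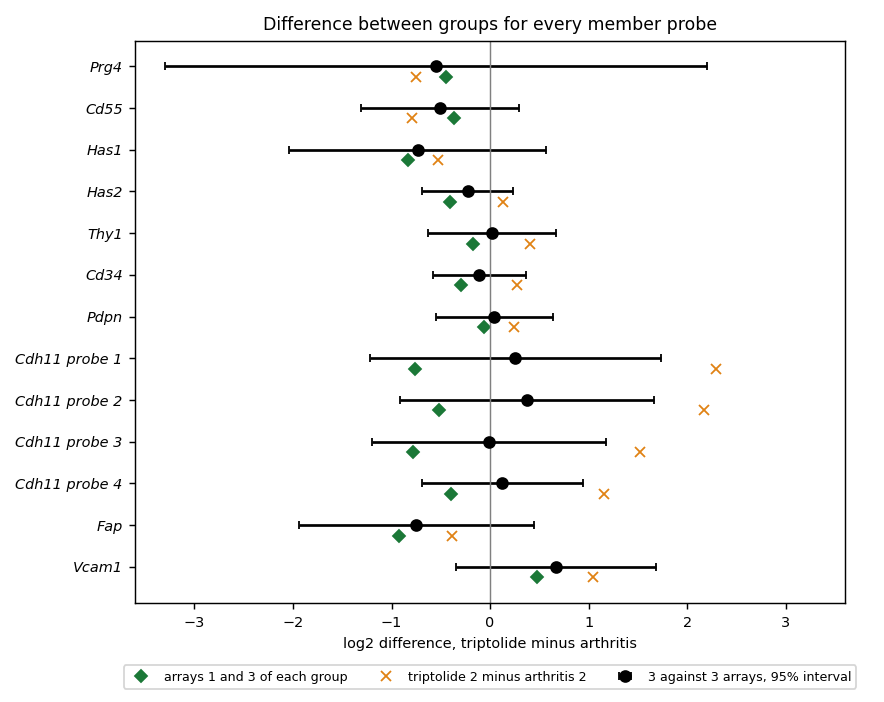
Log2 difference of each member probe, triptolide minus arthritis (x axis), for the 3 against 3 arrays (circles with 95% intervals from limma), for replicates 1 and 3 alone (diamonds) and for triptolide 2 minus arthritis 2 (crosses, single arrays without an error). All intervals of the full comparison include 0, and Prg4 has the widest, -3.30 to 2.20. For the 4 Cdh11 probes the diamonds lie below 0 and the crosses above 1.

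Set against each other, the lining genes were lower in 3 of 3 with a median difference of -0.55, the sublining genes in 1 of 2 with a median of -0.05, and the activation genes in 1 of 2 with a median of -0.35, beside 46.1% lower and 0.02 over all tested probes. The mean of the lining genes minus that of the sublining genes, each gene centred on its 6 arrays, was 0.54, -0.46 and 0.75 in arthritis 1 to 3 and 0.57, -1.48 and 0.09 in triptolide 1 to 3. Replicate 2 was the low array of each group, and triptolide 1 lay above arthritis 1. This contrast averaged 0.28 ± 0.64 (SD, n = 3) in arthritis and -0.28 ± 1.07 (SD, n = 3) in triptolide, so the shift between groups was smaller than the spread within the triptolide group. The lining minus activation contrast averaged 0.12 ± 0.33 and -0.12 ± 0.67 in the same order. Without triptolide 2 the lining median was -0.18 and without arthritis 2 it was -1.24, so its size hung on those arrays while its sign did not. Within slide 1, and likewise with a slide block, where only triptolide 1 stands for the treated group, the medians were -0.13 for lining, -0.28 for sublining and -0.27 for activation, so the order of the sets turned over. Without arthritis 2 alone, 2 of 10 members stood at an unadjusted limma p under 0.05, against 3.34% of all tested probes. Arthritis 2 was the lowest arthritis array for 10 of 10 members, against 58.5% of all tested probes. Leaving it out therefore raises each member's arthritis mean by construction, and this count is no support for a difference.

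The members shared much of their order over the arrays. In 8 of 10 genes the lowest of the 6 arrays was arthritis 2 or triptolide 2, which held for 61.3% of all tested probes. In 9 of 10 genes the highest array was arthritis 1 or arthritis 3, against 23.8% of all tested probes. Cdh11 counts among the 9 through its brightest probe only, since triptolide 2 was highest on the other 3 of its 4 probes. The exceptions were Cd34 and Has2, lowest in triptolide 1, and Vcam1, highest in triptolide 1. Arthritis 2 was the lowest arthritis array for 10 of 10 genes, against 58.5% of all tested probes. Triptolide 2 was the lowest triptolide array for 6 of 10 (Prg4, Cd55, Has1, Pdpn, Fap and Vcam1), against 43.7%. Arthritis 2 is the array with the high skeletal muscle signal, and triptolide 2 has the highest mean of the nerve, smooth muscle, endothelial and chondrocyte marker lists. Both arrays were also the lowest in the macrophage and T cell lists. The 11 tested of 12 macrophage markers summed to 756.2 in arthritis 2 and 587.5 in triptolide 2, against 1034.7 to 1255.3 elsewhere. The 9 tested of 10 T cell markers summed to 7.16 and 7.73 in the same order, against 16.9 to 19.6 elsewhere. The 8 tested of 12 chondrocyte markers summed to 29.5 to 44.9 in arthritis and 30.1 to 51.7 in triptolide. The part of these cell types in the member values was not tested.

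**Figure D4:**
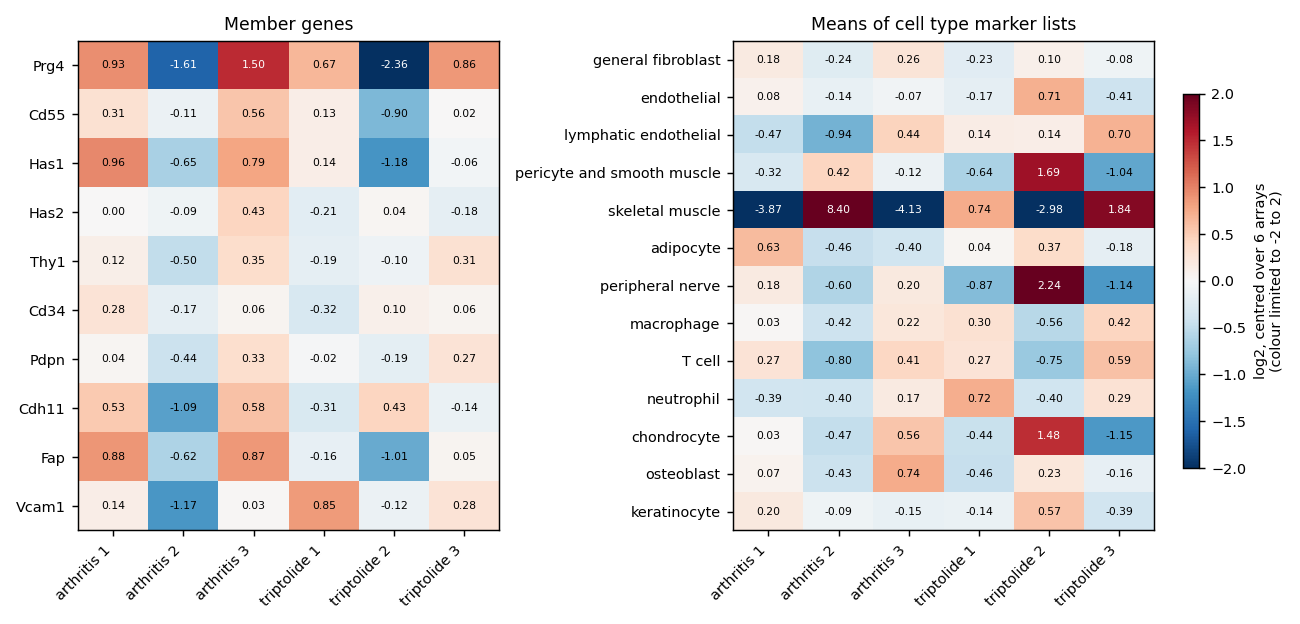
Log2 level of each member gene (left) and mean of the tested genes of each cell type marker list (right) on the 6 arrays, each gene centred on its own mean over the 6 arrays, with the colour scale limited to -2 to 2 and the value printed in each cell. All members are below 0 on arthritis 2, and all but Has2, Cd34 and Cdh11 are below 0 on triptolide 2. The skeletal muscle list stands at 8.40 on arthritis 2 and the peripheral nerve list at 2.24 on triptolide 2.

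Since arthritis 2 and triptolide 2 stood apart in markers of other tissues, replicates 1 and 3 of each group were also compared alone. That was 2 arrays against 2. The kept arrays still differed in such markers. Skeletal muscle sums were 90.2 and 69.7 in triptolide 1 and 3, against 5.02 and 4.93 in arthritis 1 and 3. In the same order, nerve sums were 56.4 and 58.9 against 88.9 and 94.0, and endothelial sums 51.0 and 44.7 against 67.3 and 61.1. The T cell and adipocyte sums overlapped. The part of tissue makeup in the differences below was not tested. Arthritis 2 was the lowest arthritis array for every member, so leaving it out raises each member's arthritis mean by construction, and the counts below are a description and no support for a difference. Of the 10 members 9 were lower with triptolide, all but Vcam1, where 52.1% of all tested probes were lower. The median difference was -0.39 over the members and -0.01 over all tested probes. In 7 of 10 members the groups did not overlap, against 45.1% of all probes; 6 of these were lower with triptolide, against 23.3%. Of the members 3 of 10 reached an unadjusted limma p under 0.05, against 11.2%. After Benjamini-Hochberg adjustment 0 of 10 members and 24 of 25772 probes (0.0931%) passed the threshold of 0.05.

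Fap, Has1 and Cdh11 were the 3 members at an unadjusted p under 0.05 on these arrays. Fap was 1.90-fold lower, a difference of -0.93 (SE 0.13; limma adjusted p = 0.238). Has1 was 1.79-fold lower, a difference of -0.84 (SE 0.14; limma adjusted p = 0.291). Cdh11 was 1.71-fold lower on probe 3, a difference of -0.78 (SE 0.12; limma adjusted p = 0.266), and probes 1, 2 and 4 differed by -0.76, -0.52 and -0.39. Over all settings that were run, the lowest adjusted p of any member was between 0.238 and 0.99994.

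Triptolide 2 set against arthritis 2, single arrays without an error, divided the members. Prg4, Cd55, Has1 and Fap were lower there too, by -0.76, -0.79, -0.52 and -0.38, and so were lower in both comparisons. Nothing in the labels pairs these 2 arrays, which lie on different slides and differ in markers of other tissues. The share of all tested probes lower on them was not counted, so this describes the arrays and is no replication. Cdh11 was higher on that pair, by 1.52 on probe 3 and 2.30 on probe 1, where it was lower on the other arrays. These gaps rest on dim signals. On arthritis 2 the intensity was 29.3 for probe 3 and 14.9 for probe 1, where the 75th percentile was 292.9. On triptolide 2 it was 98.1 and 85.4, where the 75th percentile was 341.9. The value for Thy1 was 0.40 on that pair and -0.18 on the other arrays. Vcam1 alone was higher in both, by 1.05 on that pair and 0.48 on the other arrays.

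Of the other genes of these cells and pathways, 86 were listed and 74 tested, of which 0 passed the adjusted threshold in limma and 3 reached an unadjusted p under 0.05 (Col22a1, Hbegf and Clec1b), 4.05% beside 3.23% of all tested probes. In their means 37 were higher and 37 lower, with a median of 0.0018, and in 6 of 74 the groups did not overlap, against 8.64% of all probes.

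Of 8 other lining genes 7 were tested, 3 higher and 4 lower, with a median of -0.27. Col22a1 and Hbegf had the smallest p. Col22a1, a collagen of tissue junctions, stood at 1.28, 1.66 and 1.24 in arthritis 1 to 3 and at -0.46, -2.61 and -0.03 in triptolide 1 to 3. All triptolide arrays lay below all arthritis arrays, and triptolide 2 was lowest by a wide margin. The difference was -2.42 (SE 0.66; limma unadjusted p = 0.0096, adjusted p = 0.994) and ran from -2.93 to -1.50 over the alternatives. With slide as a block it was -1.85 (SE 0.95; limma unadjusted p = 0.106).

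Hbegf, a membrane-anchored growth factor that binds the epidermal growth factor receptor, stood at 1.24, 0.97 and 1.49 in arthritis 1 to 3 and at 0.31, -0.57 and 0.63 in triptolide 1 to 3. Again every triptolide array lay below every arthritis array. The difference was -1.11 (SE 0.34; limma unadjusted p = 0.015, adjusted p = 0.994), with -1.36 to -0.77 over the alternatives. With slide as a block it was -0.93 (SE 0.50; limma unadjusted p = 0.123), and without arthritis 3 the unadjusted limma p was 0.051. In contrast to Prg4 and Has1, neither gene was clearly low on arthritis 2, where Col22a1 had its highest value.

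Clic5, a chloride intracellular channel protein of the lining, had values of 3.32, 3.41 and 3.88 in arthritis and of 2.90, 0.35 and 3.37 in triptolide, with triptolide 2 far below the rest. Its difference was -1.33 (SE 0.77), and -1.17 (SE 0.71) on its other probe, and it was -0.40 without triptolide 2. Tspan15, a tetraspanin, differed by -0.27 (SE 0.30). Itgb8, Mmp3 and Cd82 had higher means, by 0.47 (SE 1.10), 0.48 (SE 1.00) and 0.33 (SE 0.27).

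**Figure D5:**
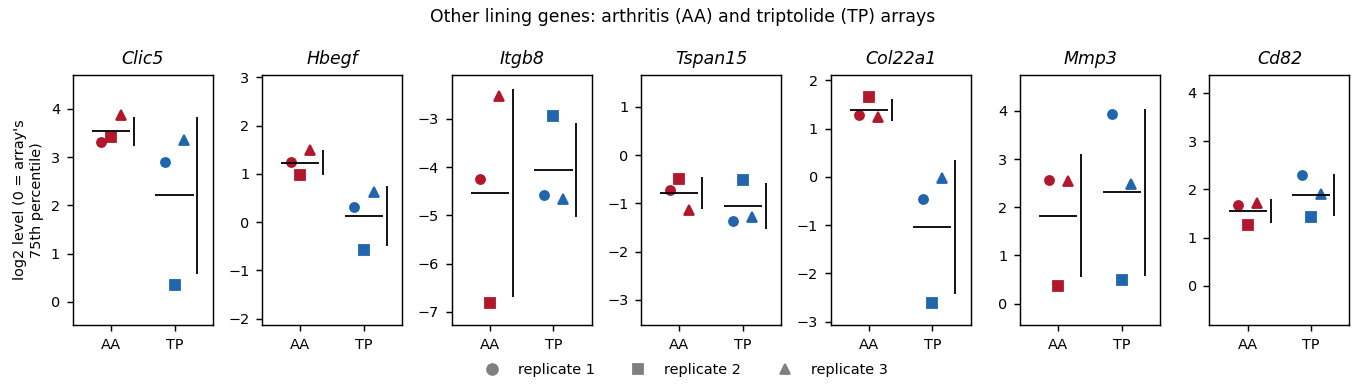
Log2 level of the 7 tested genes of the other lining list (y axis, 0 is the array's own 75th percentile, every panel spanning the same number of log2 units) on the arthritis (AA) and triptolide (TP) arrays. Symbols mark replicates, horizontal lines the group means and vertical lines 1 SD either side (n = 3). Col22a1 and Hbegf have every triptolide array below every arthritis array, and the other 5 genes overlap.

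Of 14 other sublining genes 13 were tested, 6 higher and 7 lower, with a median of -0.01. Dpt, which encodes the matrix protein dermatopontin, differed by -0.29 (SE 0.17) without overlap between groups, and Mfap5, a microfibril protein, by -0.31 (SE 0.18) with overlap. Pi16, a marker of adventitial fibroblasts, differed by 0.34 (SE 0.29), with a sign that turned under at least 1 alternative. Like Thy1 and Cd34, this list was centred near 0.

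The list for supply, binding and breakdown of hyaluronan held 21 genes other than Has1 and Has2. Of these 15 were tested, 7 higher and 8 lower, with a median of -0.03. Lyve1, the hyaluronan receptor of lymphatic endothelium and some macrophages, differed by -0.80 (SE 0.41), with its lowest value of 1.19 in triptolide 2 against 2.35 to 3.04 elsewhere. The other tested lymphatic endothelial markers had higher means, by 1.32 (SE 0.61) for Ccl21, 1.12 (SE 0.52) for Reln and 0.96 (SE 0.38) for Mmrn1. Gfpt1, which opens the hexosamine pathway, differed by 0.31 (SE 0.23). Ugp2, which makes UDP-glucose, differed by -0.42 (SE 0.37), with a sign that turned under at least 1 alternative. Has3 was not tested, since its probes did not pass the filter on dim probes.

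Among 20 binding partners of podoplanin, cadherin-11, VCAM1 and the other adhesion members, 19 were tested, and 15 were higher and 4 lower, with a median of 0.18 beside 53.9% higher and 0.02 over all tested probes. Clec1b, the platelet receptor for podoplanin, stood at -4.22, -3.41 and -4.07 in arthritis 1 to 3 and at -2.24, -2.24 and -3.59 in triptolide 1 to 3. Triptolide 1 and 2 were the high arrays, and triptolide 3 overlapped with arthritis 2. The difference was 1.21 (SE 0.43; limma unadjusted p = 0.029, adjusted p = 0.994), between 0.37 and 1.66 over the alternatives. The Clec1b signal was dim on all 6 arrays, though well above background there. With normexp background correction the difference was 0.37 and its unadjusted limma p 0.152, so its size hung on the background handling. The unadjusted limma p was 0.087, 0.078, 0.091 and 0.090 without arthritis 1, arthritis 3, triptolide 1 and triptolide 2. Icam1, the partner of leukocyte integrins that is induced beside Vcam1 by cytokines, differed by 0.68 (SE 0.33), close to the 0.67 of Vcam1. The chains of the VCAM1 ligand VLA-4 differed by 0.21 (SE 0.23) for Itga4 and -0.10 (SE 0.16) for Itgb1, which were picked after their values were seen.

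Beside Cd55, 8 of 9 complement regulators were tested, 4 higher and 4 lower, with a median of 0.03. Cd46, a cofactor for complement inactivation, differed by -0.21 (SE 0.14) without overlap between groups. Cr1l, the rodent regulator known as Crry, differed by 0.25 (SE 0.17), and by 0.12 and 0.07 on its other probes. Cfi, the factor I protease, differed by -0.52 (SE 0.34).

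Beside Fap, 12 of 14 genes of fibroblast activation and of its peptidase family were tested, 2 higher and 10 lower, with a median of -0.13 beside 46.1% lower over all tested probes. Loxl2, a lysyl oxidase that crosslinks collagen, stood at 3.95, 3.54 and 3.67 in arthritis 1 to 3 and at 2.97, 3.38 and 3.41 in triptolide 1 to 3. The groups did not overlap, and triptolide 1 was lowest. The difference was -0.46 (SE 0.20; limma adjusted p = 0.994). Cthrc1 and Postn, matrix genes of activated fibroblasts, each differed by -0.76 (SE 0.35 and 0.39) with overlap.

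Genes with the pattern most like Prg4 over the 6 arrays were found by the root mean square distance of their centred log2 levels, among 11701 genes. They were Cdhr5 (0.25), Dsc2 (0.26) and Grm8 (0.41), where the median gene lay at 1.42. Dsc2 and Grm8 were very dim on the replicate 2 arrays, so the depth of their dips is uncertain. Their levels were -4.90 and -6.39 in arthritis 2 and -6.16 and -6.43 in triptolide 2. Of the members, Has1 (0.81) was the nearest, at rank 54 among all genes, and Fap (0.87) came next. The pattern nearest to Thy1 was that of Chek2 (0.03), Adat2 (0.05) and Mxd4 (0.05), with the median gene at 0.34, and the nearest member was Pdpn (0.09). Arrays share their depth and tissue makeup in every gene, so these distances describe the 6 arrays and carry no test.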

How the data were processed

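The deposited files hold each spot's intensity on a linear scale, which the authors' scanner software corrected for background within each array, without normalization across arrays. Agilent Feature Extraction 10.7.3.1 wrote them, with probe positions on rn4, per the file headers, whereas the submitters' processing notes name version 9.1. Per the labels' protocols, 0.5 ug of RNA was labelled with Cy3. A deposited log2 table of the whole series holds 0 of the 13 member probes and was not used.

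After removal of control spots and of spots flagged as outliers, intensity was put on the log2 scale, less the array's own 75th percentile, and spots of a probe were averaged. Probes well above background on at least 3 of 6 arrays were tested with limma 3.58.1 (lmFit and eBayes, no covariates) in R 4.3.3. Benjamini-Hochberg adjustment ran over all tested probes at a threshold of 0.05. The scripts were tested on simulated data.

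Of several probes the one with the highest mean stands for a gene. The rule for named genes took all members, the 3 tested genes of each related list with the smallest unadjusted p, and the 3 genes nearest to Prg4 and to Thy1. One gene that the rule took is not reported here. The 7 tested genes of the other lining list (Htra4 was not tested) are all named, 4 of them, and 3 lymphatic markers, by choice after their values were seen. Members and lists were chosen with earlier results of these data known, so they are no independent support. Sequences and coordinates are those in the scanner files. The place of probes in exons and untranslated regions was not analysed here.

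Alternatives were normexp background correction (offset 50), quantile normalization, other filters on dim probes, slide as a block, slide 1 alone, the replicate number as a block, leaving out each array, replicates 1 and 3 alone, and, for the medians of the member sets, the mean over probes of a gene.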

Additional observations from a re-analysis of the deposited data

How the results depend on the processing

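In every refit of the comparison, 0 members and 0 genes of the related lists passed the adjusted threshold. Signs turned as follows. With normexp correction Cdh11 probe 4 stood at -0.17. Within slide 1, and equally with the slide block, Prg4 stood at 0.40, Thy1 at -0.18, and Cdh11 probes 1, 2 and 4 at -0.31, -0.10 and -0.039. On replicates 1 and 3 alone Thy1 stood at -0.18, Pdpn at -0.060, and Cdh11 probes 1, 2 and 4 at -0.76, -0.52 and -0.39. Leaving out each array in turn gave -1.49 to 0.49 for Prg4, -0.23 to 0.20 for Thy1, -0.22 to 0.025 for Cd34, -0.17 to 0.22 for Pdpn, and -0.37 to 0.59, -0.15 to 0.66, -0.56 to 0.28 and -0.22 to 0.35 for Cdh11 probes 1 to 4. It gave medians of -1.24 to -0.18 for lining, -0.22 to 0.07 for sublining, -0.71 to -0.14 for activation and -0.45 to -0.0047 for all members, and 616 to 1656 probes at an unadjusted p under 0.05 in place of 833. That count was 1756 without a filter on dim probes, 1295 within slide 1 and 2879 on replicates 1 and 3 alone, where 24 probes passed adjustment; the cause was not tested. Same-numbered samples did not deviate together (r of -0.16, -0.13 and 0.00083 over the 3 pairs), so the numbers were not taken as pairing. With the replicate block 5 of 10 members stood at an unadjusted limma p under 0.05, against 4.13% of all probes, and the lowest adjusted p was 0.911. Arthritis 2 was the lowest of its group for 10 of 10 members and triptolide 2 for 6. Such a block takes differences shared by same-numbered arrays out of the spread. Whether the numbers pair the samples is not known, since the labels do not say and these correlations cannot settle it. That count is therefore no support for a difference. The deposited table as a source of values was not run, since it holds no member probe. With 3 arrays per group and slide 2 holding triptolide arrays only, slide and group stay largely confounded.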
